A study of Mus musculus with 29 samples.

Results

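The genes described are 41 mouse imprinted genes, chosen by symbol as members of the known imprinted clusters and of single imprinted loci. Of these, 40 have a row among the 25239 genes of the count tables. Nespas, the antisense RNA of the Gnas locus, has no row under that symbol. After genes with low counts were removed, 36 imprinted genes were among the 15383 genes tested. Ascl2, Slc22a18, Phlda2 and Rasgrf1 were not tested because their counts were too low, so statements on the 36 do not cover all 41.

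The RNA-seq libraries came from mouse embryos of stage E11.5, and each was made from poly(A) RNA of a pool of dissected tissue from several embryos of the same genotype. The 4 groups, each of 2 pools, were forebrain of wild-type embryos, forebrain of embryos with the hs267-853 knockout, midbrain of wild-type embryos and midbrain of embryos with the hs654 knockout. The names hs654 and hs267-853 stand for deleted developmental enhancers, and it was not established whether hs267-853 is 1 deletion or more. The sex of the embryos and the strain are not given in the sources used here, p-values measure only the spread between these pools, and 21 enhancer-capture Hi-C samples of the same series were not analysed here.

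Each library held 9051632 to 18024406 counts in genes, and the imprinted genes took 0.799% to 0.956% of them. Values are given as CPM, counts scaled to a common library size by the usual factor, and 3 counts, the most that an observed 0 allows, equal 0.170 to 0.328 CPM for counting error only. The tissue labels were checked with regional genes: Emx2, a transcription factor of the dorsal forebrain, was at 140.2 to 167 CPM in the forebrain libraries and 13.5 to 23.5 CPM in the midbrain libraries, and the midbrain factor En2 had no count in any forebrain library and 130 to 158 CPM in midbrain. Forebrain knockout replicate 1 stood apart from the other 3 forebrain libraries, with the highest value of the 4 for 17 of the 36 imprinted genes and the lowest for 10. In midbrain, wild-type replicate 1 was the lowest of the 4 for 16 of 36 and had the highest summed level of erythroid genes, 8373 CPM against 4124 to 5778 CPM in the other 7 libraries. That sum takes Hba-a1 and Hba-a2 as separate genes, although their rows are identical in every library.

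Imprinted genes are transcribed mainly or only from the copy inherited from a given parent. Most lie in clusters, where a control region that carries DNA methylation on the maternal or the paternal copy sets which genes are active, often through a long noncoding RNA or the binding of CTCF. The methylation is kept through the early embryo by the zinc finger proteins ZFP57 and ZFP445 with TRIM28 and DNMT1. Many of these genes act on fetal growth and on the developing brain. Counts per gene symbol add both parental copies, so the libraries show how much RNA each gene gave and not which copy it came from.

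Sequences of 5 loci show the start regions and small RNAs that the measured transcripts belong to. The first is the stretch between the RefSeq spans of Peg3 and Usp29, chr7:6730463-6730558 in build GRCm38.p6, plus strand, 96 bases, which separates the starts of 2 genes transcribed away from each other. The next 3 are the 250 bases before a RefSeq start of Meg3 (chr12:109540746-109540995, plus strand), of Mest (chr6:30737800-30738049, plus strand, inside the longer Mest span) and of Nap1l5 (chr6:58907127-58907376, minus strand). They are shown because Meg3 and Mest differed between the tissues in opposite directions and Nap1l5 differed most among the genes that were lower in forebrain. Capitals mark TGCCGC or its reverse complement GCGGCA, the core of the published ZFP57 site, searched on both strands with no other motif.
Peg3-Usp29: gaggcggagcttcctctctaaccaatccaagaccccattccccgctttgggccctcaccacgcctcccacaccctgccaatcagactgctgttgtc
Meg3: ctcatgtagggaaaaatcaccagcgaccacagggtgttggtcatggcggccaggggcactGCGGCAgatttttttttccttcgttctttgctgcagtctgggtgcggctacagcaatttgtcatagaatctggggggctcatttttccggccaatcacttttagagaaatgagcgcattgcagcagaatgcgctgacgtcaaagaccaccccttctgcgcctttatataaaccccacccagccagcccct
Mest: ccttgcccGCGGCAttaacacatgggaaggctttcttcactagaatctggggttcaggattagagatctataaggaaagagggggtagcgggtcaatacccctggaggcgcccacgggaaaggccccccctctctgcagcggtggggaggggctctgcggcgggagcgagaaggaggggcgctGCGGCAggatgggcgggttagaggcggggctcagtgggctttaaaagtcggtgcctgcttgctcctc
Nap1l5: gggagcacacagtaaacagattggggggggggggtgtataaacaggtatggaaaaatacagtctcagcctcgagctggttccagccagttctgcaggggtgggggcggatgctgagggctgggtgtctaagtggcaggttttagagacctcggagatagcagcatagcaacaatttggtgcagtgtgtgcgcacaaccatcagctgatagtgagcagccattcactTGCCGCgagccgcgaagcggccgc
Windows of this kind were found in the RefSeq table for 33 of the 41 genes. The hexamer was in at least 1 window of 5 of the 33 (15.2%): Meg3, Mest, Nap1l5, Zim1 and Plagl1. Of 27025 genes with such windows, 9.84% held it. The 2 shares are per gene and do not allow for the number or the base content of the windows. The 33 genes had 49 windows and the 27025 genes 32851, of which 8.68% held the hexamer. The base pair CG occurred a median of 10 times in the windows of the imprinted genes, against 6 in all windows. The Meg3 window at chr12:109545148 and the Mest window at chr6:30733256, not shown, held 0 matches. The stretch between Peg3 and Usp29 held none. A match is only a match of letters.

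RefSeq places 34 microRNA genes with 64 mature forms inside the spans of 8 of these genes, and 30 of the 34 lie in Meg3, Rtl1, Rian or Mirg of the Dlk1-Dio3 cluster. A microRNA pairs with its targets mainly through its seed, bases 2 to 8. Of 62 different seeds, 2 were shared by a pair of mature forms. The examples show the microRNA inside H19, the one inside Mest, and the pair inside Mirg with a shared seed, with the seed in capitals.
mmu-miR-675-5p (H19): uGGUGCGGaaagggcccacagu
mmu-miR-335-5p (Mest): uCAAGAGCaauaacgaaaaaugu
mmu-miR-453 (Mirg): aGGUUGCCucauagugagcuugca
mmu-miR-496a-5p (Mirg): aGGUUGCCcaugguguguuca
Spans were matched by position and not by strand, and the microRNAs inside the Rtl1 span lie on both strands. A microRNA inside a span can therefore belong to a transcript other than that gene's. Libraries of poly(A) RNA do not measure these mature forms.

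Forebrain and midbrain were compared first in the wild-type libraries, which gives the regional pattern of the imprinted genes. Adjusted p-values (Benjamini-Hochberg, over all 15383 genes) come from the quasi-likelihood test of edgeR, and a gene was called when its adjusted p was under 0.05. Of the 36 imprinted genes tested, 23 were called, 11 higher and 12 lower in forebrain. That is 63.9%, against 29.6% of all genes tested (14.3% higher and 15.3% lower). Their log2 fold changes (forebrain over midbrain) had a median of -0.04, against 0.00 for all genes, and their absolute log2 fold changes a median of 0.51, against 0.23. The 2 forebrain libraries did not overlap the 2 midbrain libraries for 32 of 36, against 65.9% of all genes.

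The knockout libraries give the tissue difference a second time in pools that enter no wild-type value, although there tissue and deletion cannot be told apart. In hs267-853 knockout forebrain against hs654 knockout midbrain, 19 of 36 were called (52.8%, against 29.4% of all genes), 8 higher and 11 lower in forebrain (14.6% and 14.8% of all genes), and the median absolute log2 fold change was 0.44, against 0.24. All 19 were also called in the wild-type comparison with the same direction. Genes called in both comparisons with the same direction were thus 52.8% of the 36, against 21.9% of all 15383 genes tested. The 36 log2 fold changes had the same sign in both comparisons, and they differed by a median of 0.13 and at most by 1.28, for Dio3. Over both genotypes, the 4 forebrain libraries did not overlap the 4 midbrain libraries for 25 of 36 (69.4%, against 40.9% of all genes), with 12 higher in forebrain and 13 in midbrain.

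**Figure D1:**
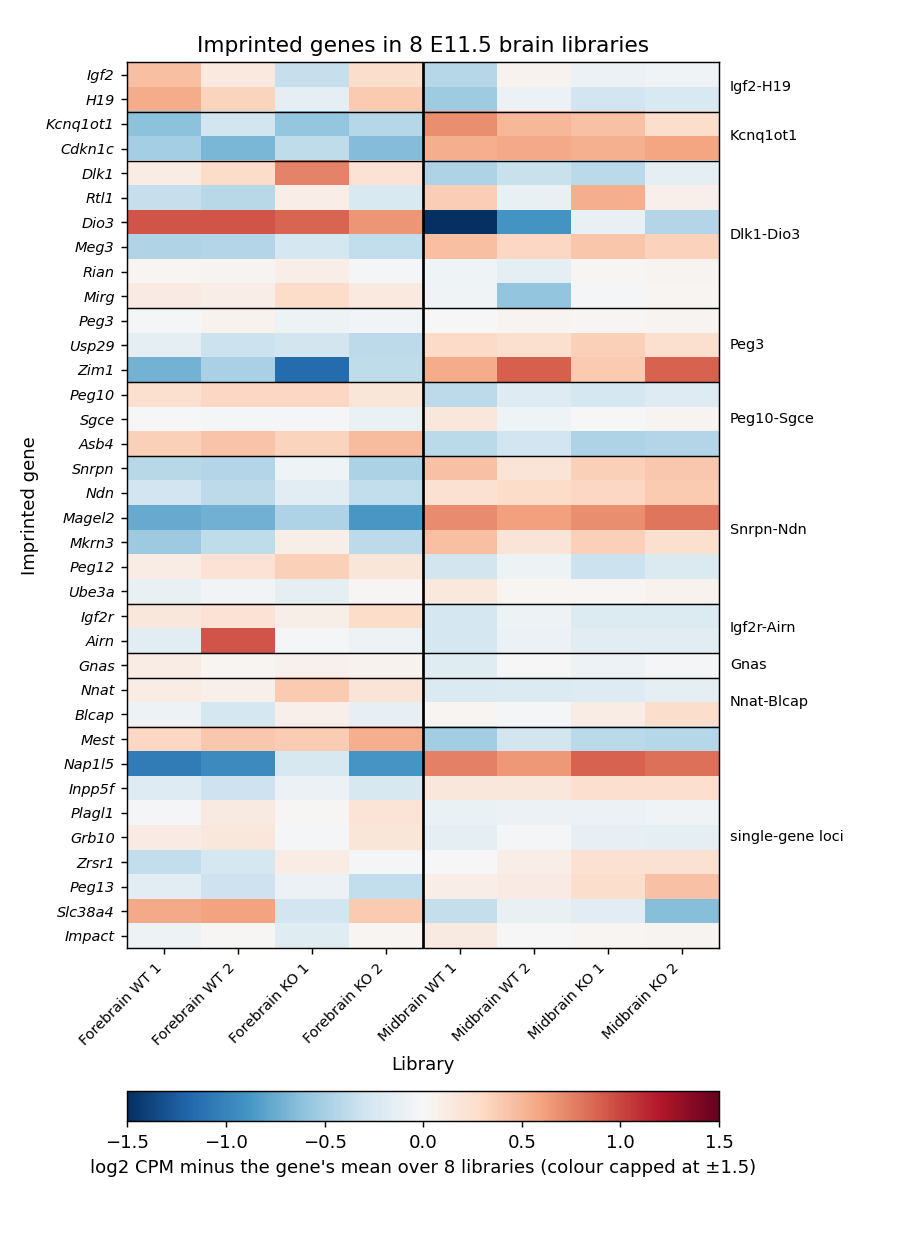
Log2 CPM of the 36 imprinted genes tested (rows, grouped by cluster) in the 8 libraries (columns), each minus the mean of the gene over the 8 libraries, with red for higher and blue for lower. Kcnq1ot1, Cdkn1c, Meg3, Magel2 and Nap1l5 are red in all 4 midbrain libraries, Mest, Asb4 and Peg10 are red in all 4 forebrain libraries, and Peg3 is pale throughout.

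**Figure D2:**
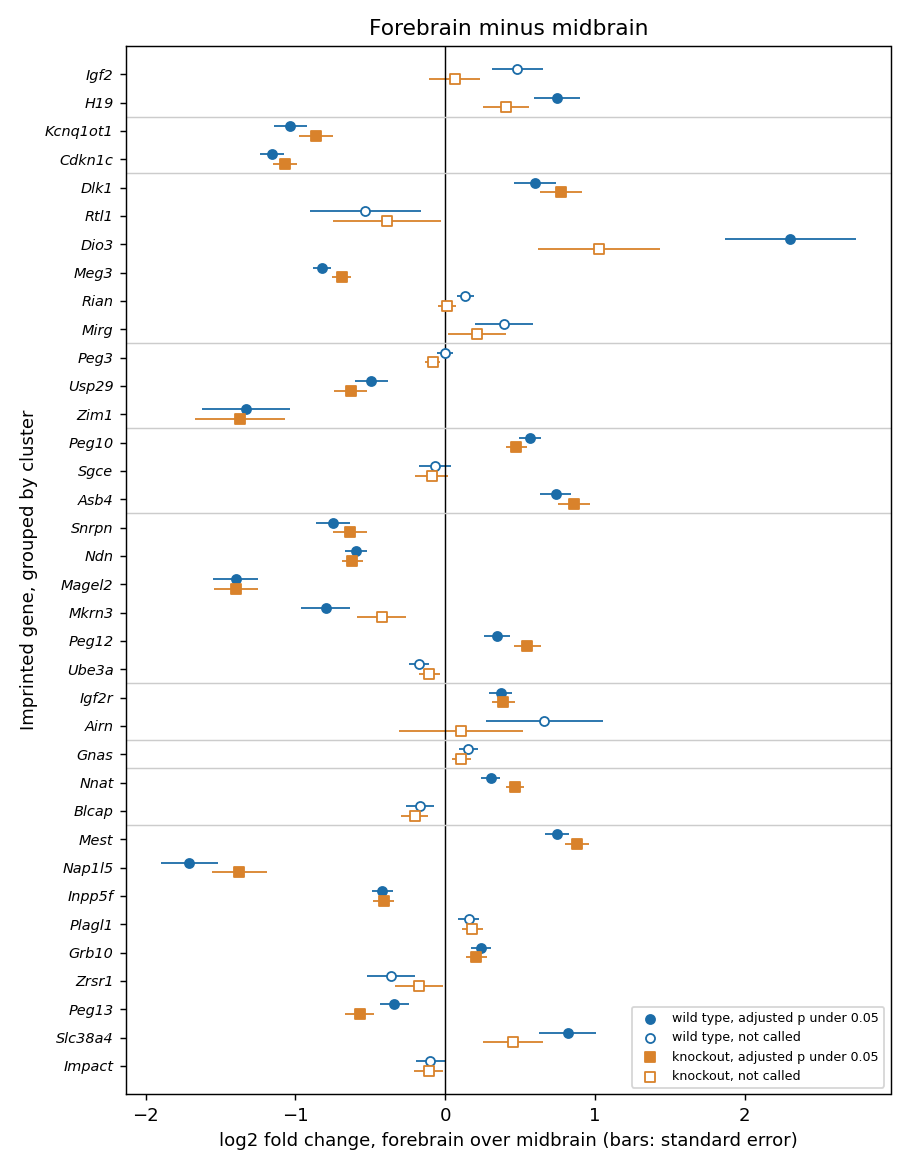
Log2 fold change of forebrain over midbrain with its standard error (horizontal axis) for each of the 36 imprinted genes, in wild-type libraries (blue circles) and knockout libraries (orange squares); filled symbols were called at an adjusted p under 0.05. The 36 pairs of values have the same sign, 23 wild-type and 19 knockout values are filled, and Dio3 has the widest gap between its symbols.

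The Dlk1-Dio3 cluster, chr12:109452485-110281097 from the start of Dlk1 to the end of Dio3, holds paternally expressed coding genes and maternally expressed noncoding RNAs. In wild-type libraries Dlk1 and Dio3 were higher and Meg3 lower in forebrain, so the cluster did not shift as a block. Dlk1 encodes a transmembrane protein of the Notch ligand family that is released from progenitor cells. It measured 109 and 122 CPM in wild-type forebrain, 168 and 117 in knockout forebrain, 72.9 and 79.7 in wild-type midbrain and 76.4 and 91.3 in knockout midbrain. All 4 forebrain values were above all 4 midbrain values, and forebrain knockout replicate 1 was the highest. The log2 fold change was 0.60 ± 0.14 (SE, edgeR adjusted p = 0.00588) in wild-type libraries and 0.77 ± 0.14 (SE, edgeR adjusted p = 0.00107) in knockout libraries. Without forebrain wild-type replicate 2 the adjusted p rose to 0.0563, without midbrain wild-type replicate 1 to 0.0610, and without forebrain knockout replicate 1 the knockout value was 0.49.

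Meg3 is a maternally expressed noncoding RNA that shares a control region with Dlk1. Its level was 219 and 220.3 CPM in wild-type forebrain, 248 and 231 in knockout forebrain, 406 and 371 in wild-type midbrain and 396 and 378 in knockout midbrain, again without overlap of the tissues but in the other direction. The log2 fold change was -0.82 ± 0.06 (SE, edgeR adjusted p = 4.43e-07) in wild-type and -0.69 ± 0.06 (SE, edgeR adjusted p = 2.37e-06) in knockout libraries. Counts of Meg3 per count of Dlk1 were therefore 1.47 to 2.00 in forebrain and 4.14 to 5.58 in midbrain.

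Rian and Mirg, noncoding RNAs that lie after Meg3 on the same strand and carry small nucleolar RNAs and microRNAs, were not called in either tissue comparison. Rian stood at 286 and 289.9 CPM in wild-type forebrain, 302 and 276 in knockout forebrain, 269.9 and 255 in wild-type midbrain and 284 and 289.7 in knockout midbrain, with overlap between the tissues. It was not called in wild-type libraries (0.13 ± 0.06 SE, edgeR adjusted p = 0.107) or in knockout libraries (0.01 ± 0.06), and leaving out either forebrain knockout library from the shared fit lowered its wild-type adjusted p to 0.0454 or 0.0449. Mirg had 9.50 and 9.36, 10.6 and 9.69, 8.41 and 5.83 and 8.60 and 8.96 CPM in the same order of groups, with midbrain wild-type replicate 2 as the lowest library, and was not called in wild-type libraries (0.39 ± 0.19 SE, edgeR adjusted p = 0.153) or in knockout libraries (0.21 ± 0.19). Counts of Rian per count of Meg3 were 1.19 to 1.32 in the forebrain libraries and 0.664 to 0.766 in the midbrain libraries. The spans of Meg3, Rian and Rtl1 overlap in part, and how reads in shared positions were counted is not given in the sources used here.

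Dio3, the deiodinase that inactivates thyroid hormone, was low everywhere. It measured 2.85 and 2.86 CPM in wild-type forebrain, 2.72 and 2.36 in knockout forebrain, 0.380 and 0.799 in wild-type midbrain and 1.38 and 1.09 in knockout midbrain, so the 4 forebrain libraries were higher. Its log2 fold change was the largest of the 36 in wild-type libraries at 2.30 ± 0.44 (SE, edgeR adjusted p = 0.00155), and 1.03 ± 0.41 (SE, edgeR adjusted p = 0.0753) in knockout libraries, where it was not called. The values in wild-type midbrain rest on 6 and 10 counts. Rtl1, a gene derived from a retrotransposon and needed in the placenta, was at 1.55 to 3.01 CPM in the 8 libraries and was not called (-0.53 ± 0.37 SE, edgeR adjusted p = 0.313).

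**Figure D3:**
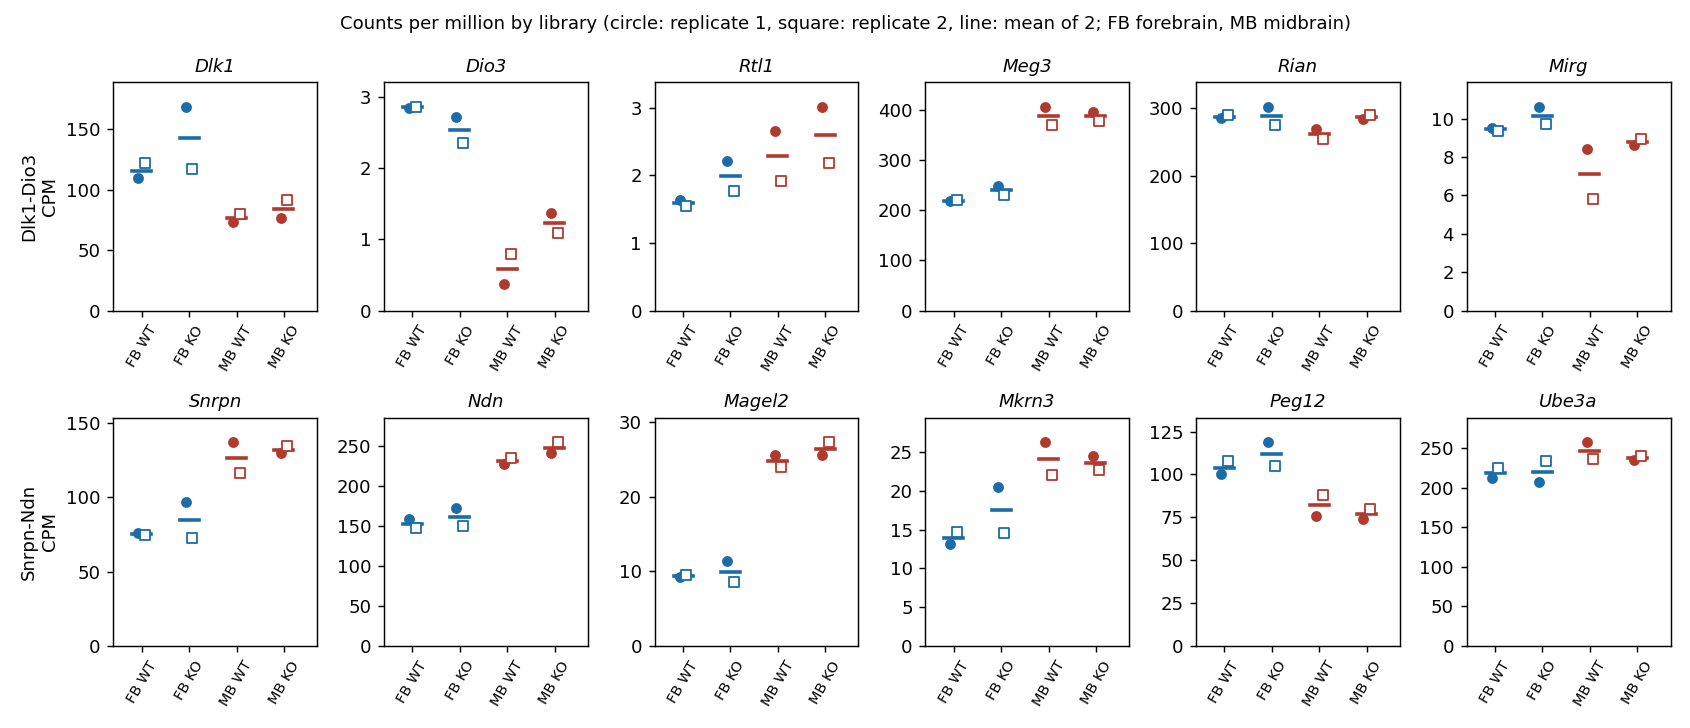
CPM (vertical axes, from 0) of 6 genes of the Dlk1-Dio3 cluster (top) and 6 of the Snrpn-Ndn cluster (bottom) in the 4 groups; circles are replicate 1, squares replicate 2 and lines the mean of the 2, with forebrain in blue and midbrain in red. Dlk1 and Dio3 lie higher in forebrain while Meg3 lies lower, and Peg12 lies higher in forebrain while Snrpn, Ndn, Magel2 and Mkrn3 lie lower.

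The Snrpn-Ndn cluster on chromosome 7 corresponds to the human region of Prader-Willi and Angelman syndromes. Of its 6 genes, 4 paternally expressed genes were lower in forebrain in wild-type libraries, Peg12 was higher and Ube3a was not called. Magel2, a regulator of ubiquitin ligases and of protein recycling, showed the widest separation. It had 9.30 and 9.52 CPM in wild-type forebrain, 11.3 and 8.58 in knockout forebrain, 25.6 and 24.0 in wild-type midbrain and 25.6 and 27.3 in knockout midbrain. The lowest midbrain value was far above the highest forebrain value, with a log2 fold change of -1.40 ± 0.15 (SE, edgeR adjusted p = 1.37e-05) in wild-type and -1.40 ± 0.15 (SE, edgeR adjusted p = 1.33e-05) in knockout libraries.

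Ndn encodes necdin, a protein of the same MAGE family that is made in postmitotic neurons. It measured 158 and 148 and 172 and 149.6 CPM in wild-type and knockout forebrain, and 227 and 235 and 241 and 255 CPM in wild-type and knockout midbrain. The tissues did not overlap, and the log2 fold change was -0.59 ± 0.07 (SE, edgeR adjusted p = 4.33e-05) in wild-type and -0.62 ± 0.07 (SE, edgeR adjusted p = 3.12e-05) in knockout libraries. Snrpn, which encodes a spliceosomal protein, had 76.3 and 74.9 CPM in wild-type forebrain, 96.6 and 72.9 in knockout forebrain, 137 and 116 in wild-type midbrain and 129.8 and 134 in knockout midbrain, with -0.75 ± 0.11 (SE, edgeR adjusted p = 0.000292) in wild-type and -0.64 ± 0.11 (SE, edgeR adjusted p = 0.000867) in knockout libraries. Counts of Snurf, which shares exons with Snrpn, were 0.935 to 0.969 of those of Snrpn in every library, so the 2 rows are not independent.

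Mkrn3, a ubiquitin ligase known as a brake on puberty, measured 13.2 and 14.7 and 20.4 and 14.6 CPM in forebrain (wild type, then knockout) and 26.3 and 22.0 and 24.5 and 22.6 CPM in midbrain. Forebrain knockout replicate 1, the first of the knockout forebrain values, lay closest to midbrain. The log2 fold change was -0.80 ± 0.16 (SE, edgeR adjusted p = 0.00266) in wild-type libraries and -0.43 ± 0.16 (SE, edgeR adjusted p = 0.0666) in knockout libraries, where Mkrn3 was not called. Without forebrain knockout replicate 1 the knockout value was -0.69 with an edgeR adjusted p of 0.00526.

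Peg12, a gene without introns beside Mkrn3 that encodes a protein of the family that restrains GSK3, differed in the opposite direction from its neighbours. It stood at 100.2 and 108 CPM in wild-type forebrain, 119 and 105 in knockout forebrain, 76.0 and 87.9 in wild-type midbrain and 73.9 and 79.6 in knockout midbrain. All 4 forebrain libraries were above all 4 midbrain libraries, with 0.34 ± 0.09 (SE, edgeR adjusted p = 0.0101) in wild-type and 0.55 ± 0.09 (SE, edgeR adjusted p = 0.000490) in knockout libraries. Without forebrain wild-type replicate 2 or midbrain wild-type replicate 1 the wild-type adjusted p was 0.0846 or 0.138. Ube3a, the ubiquitin ligase of Angelman syndrome, is maternally expressed in mature neurons and from both copies elsewhere. Its 8 values ran from 207 to 258 CPM, the forebrain ones below the midbrain ones, and it was not called (-0.18 ± 0.07 SE, edgeR adjusted p = 0.0720); the adjusted p was 0.0237 without forebrain knockout replicate 1 and 0.0241 without replicate 2. In knockout libraries Ube3a had -0.11 ± 0.07 (SE, edgeR adjusted p = 0.276), and 0.0497 as adjusted p without forebrain knockout replicate 2.

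Markers of neurons differed between the tissues in the same direction as Snrpn, Ndn, Magel2 and Mkrn3, and in the opposite direction to Peg12. All 7 neuronal genes measured (Tubb3, Dcx, Stmn2, Elavl3, Elavl4, Map2 and Nefl) were lower in forebrain in both tissue comparisons. Their summed level was 1776 and 1554 CPM in wild-type forebrain, 1986 and 1410 in knockout forebrain, 3297 and 3142 in wild-type midbrain and 3441 and 3539 in knockout midbrain. Forebrain knockout replicate 1 had the highest neuronal sum among the forebrain libraries, and there Snrpn, Ndn, Magel2, Mkrn3 and also Peg12 were at their forebrain maximum and Ube3a at its minimum. None of the 36 genes ranked the 4 libraries as the neuronal sum does in both tissues, and in midbrain Snrpn and Mkrn3 were highest in wild-type replicate 1, where this sum was not. In pools of whole tissue, fewer cells of a type and less RNA per cell cannot be told apart, and the part of neuron number in these differences was not tested.

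In the Kcnq1ot1 domain of distal chromosome 7, the noncoding RNA and the growth regulator it silences in cis were both lower in forebrain. Kcnq1ot1 (chr7:143213111-143296547) is transcribed from the paternal copy, where it represses its neighbours. It had 45.1 and 57.1 CPM in wild-type forebrain, 45.9 and 51.2 in knockout forebrain, 112 and 97.2 in wild-type midbrain and 93.1 and 83.0 in knockout midbrain. The tissues were well apart, with -1.03 ± 0.11 (SE, edgeR adjusted p = 1.53e-05) in wild-type and -0.86 ± 0.11 (SE, edgeR adjusted p = 8.79e-05) in knockout libraries.

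Cdkn1c (chr7:143458339-143461059), the maternally expressed cell cycle inhibitor p57, measured 261 and 232 CPM in wild-type forebrain, 286 and 238 in knockout forebrain, 545 and 554 in wild-type midbrain and 539 and 564 in knockout midbrain. Every midbrain value was well above every forebrain value, with -1.16 ± 0.08 (SE, edgeR adjusted p = 2.72e-07) in wild-type and -1.07 ± 0.08 (SE, edgeR adjusted p = 5.58e-07) in knockout libraries. The 3 other maternally expressed genes of the domain listed, Ascl2, Slc22a18 and Phlda2, which act mainly in the placenta, had at most 0.619 CPM in any library.

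At the Igf2-H19 locus, chr7:142575530-142666816, both genes had higher mean values in wild-type forebrain than in wild-type midbrain, and their levels varied between pools of the same group. Igf2 encodes a fetal growth factor from the paternal copy, and H19 is a noncoding RNA from the maternal copy. Igf2 had 752 and 612 CPM in wild-type forebrain, 434 and 661 in knockout forebrain, 409.7 and 569 in wild-type midbrain and 517 and 530.0 in knockout midbrain. Its wild-type log2 fold change was 0.48 ± 0.17 (SE, edgeR adjusted p = 0.0502), which was not called, and the knockout value was 0.06 ± 0.17 (SE, edgeR adjusted p = 0.820). The wild-type call depended on the setting: 8 of 16 alternatives called it, with adjusted p-values over the 16 from 1.78e-14 without the low-count filter to 0.376 without midbrain wild-type replicate 1. Without midbrain wild-type replicate 2 the wild-type value was 0.74 with an edgeR adjusted p of 0.0132, without either forebrain knockout library the adjusted p was 0.00259 or 0.00242, and without forebrain knockout replicate 2 the knockout value reversed to -0.27.

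H19 measured 889 and 758 CPM in wild-type forebrain, 543 and 794 in knockout forebrain, 417 and 566 in wild-type midbrain and 493 and 516 in knockout midbrain. It was higher in wild-type forebrain, 0.75 ± 0.16 (SE, edgeR adjusted p = 0.00292), and not called in knockout libraries (0.41 ± 0.16 SE, edgeR adjusted p = 0.0675), where without forebrain knockout replicate 1 it gave 0.66 with an edgeR adjusted p of 0.000538, and without midbrain wild-type replicate 1 or 2 the knockout adjusted p was 0.0410 or 0.0366. Counts of H19 per count of Igf2 were 1.18 to 1.25 in forebrain and 0.953 to 1.02 in midbrain, so this ratio separated the tissues while the levels of each gene overlapped. The separate row of Mir675, the microRNA gene inside H19, held 8.40% to 10.1% as many counts as H19.

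Genes of mesenchyme were set beside Igf2 and H19. The summed level of 9 mesenchymal genes (Col1a1, Col1a2, Col3a1, Twist1, Prrx1, Foxc1, Foxc2, Pdgfra and Lum) was 2206 and 1754 CPM in wild-type forebrain replicates 1 and 2, 1253 and 1928 in knockout forebrain, 1400 and 1958 in wild-type midbrain and 1781 and 1919 in knockout midbrain. None of the 9 was at 0 in any library, and 3 of 9 (Prrx1, Twist1 and Pdgfra) were called higher in wild-type forebrain, against 14.3% of all genes. The other 6 were not called. In knockout libraries 2 of 9 (Prrx1 and Twist1) were called higher in forebrain and 0 lower, against 14.6% and 14.8% of all genes. By sign alone 4 of 9 were higher and 5 lower in forebrain there, with a median log2 fold change of -0.18. Within each tissue the 4 libraries had the same order for this sum, for Igf2 and for H19, and no other of the 36 genes had it in both tissues. In forebrain, but not in midbrain, Igf2 and H19 also had the order of the erythroid sum, which was 5778 and 5225 CPM in wild-type pools and 4979 and 5500 CPM in knockout pools. This is a description of 4 libraries per tissue, and the part of mesenchyme or blood in the Igf2 and H19 values was not tested.

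**Figure D4:**
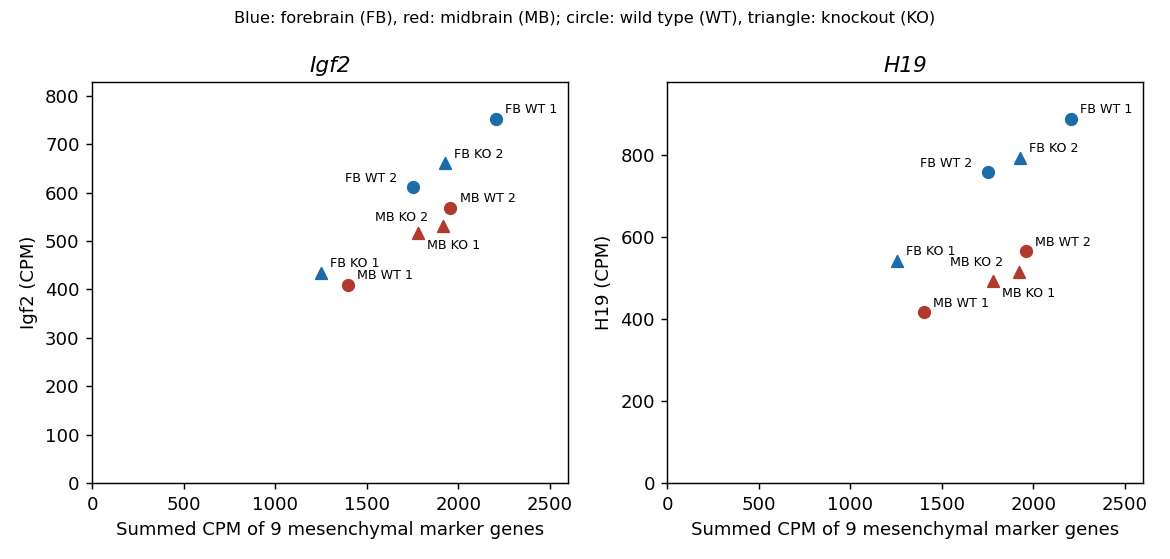
CPM of Igf2 (left) and H19 (right), each against the summed CPM of 9 mesenchymal marker genes in the same library, with both axes from 0, forebrain in blue, midbrain in red, wild type as circles and knockout as triangles. Within each tissue both genes rank the libraries as the mesenchymal sum does, from forebrain knockout replicate 1 (1253 CPM of marker genes) to forebrain wild-type replicate 1 (2206 CPM).

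In the Peg3 domain of proximal chromosome 7, Usp29 and Zim1 were lower in forebrain and Peg3 was not called. Peg3, a paternally expressed zinc finger protein, was even across all libraries, with 302 and 317 CPM in wild-type forebrain, 290.4 and 297 in knockout forebrain, 304 and 315 in wild-type midbrain and 309 and 314 in knockout midbrain. Its wild-type log2 fold change was -0.00043 ± 0.05 (SE), with a sign that changed between settings, and its knockout value -0.09 ± 0.05. Usp29, a paternally expressed deubiquitinase whose RefSeq span starts 96 bases from that of Peg3 on the opposite strand, had 26.0 and 22.8 CPM in wild-type forebrain, 23.7 and 21.7 in knockout forebrain, 34.9 and 33.8 in wild-type midbrain and 36.6 and 33.8 in knockout midbrain. It was lower in forebrain, with -0.49 ± 0.11 (SE, edgeR adjusted p = 0.00439) in wild-type and -0.63 ± 0.11 (SE, edgeR adjusted p = 0.000836) in knockout libraries; without forebrain wild-type replicate 2 the wild-type adjusted p was 0.0550.

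Zim1, a maternally expressed zinc finger gene on the other side of Peg3, was low and lower still in forebrain. It measured 2.85 and 3.33 CPM in wild-type forebrain, 2.10 and 3.60 in knockout forebrain, 6.90 and 8.71 in wild-type midbrain and 6.11 and 8.63 in knockout midbrain. No forebrain value reached the lowest midbrain value, with -1.33 ± 0.29 (SE, edgeR adjusted p = 0.00417) in wild-type and -1.37 ± 0.30 (SE, edgeR adjusted p = 0.00374) in knockout libraries. Without midbrain knockout replicate 2 the knockout value was -1.11 with an edgeR adjusted p of 0.0567.

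In the Peg10-Sgce cluster on chromosome 6, Peg10 and Asb4 were higher in forebrain and Sgce was not called. Peg10, a paternally expressed gene derived from a retrotransposon, measured 334 and 352 CPM in wild-type forebrain, 350.4 and 321 in knockout forebrain, 216 and 247 in wild-type midbrain and 235 and 248 in knockout midbrain. The log2 fold change was 0.57 ± 0.07 (SE, edgeR adjusted p = 5.79e-05) in wild-type and 0.48 ± 0.07 (SE, edgeR adjusted p = 0.000251) in knockout libraries. Sgce, the sarcoglycan gene mutated in myoclonus dystonia, starts close to Peg10 on the other strand, yet its 8 values lay between 28.4 and 34.3 CPM with -0.07 ± 0.11 (SE, edgeR adjusted p = 0.670) in wild-type libraries.

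Asb4, a maternally expressed component of a ubiquitin ligase, had 37.3 and 39.2 and 36.9 and 40.7 CPM in wild-type and knockout forebrain, and 22.1 and 23.9 and 21.2 and 21.5 CPM in wild-type and knockout midbrain. Every forebrain library exceeded every midbrain library. Asb4 was called in both comparisons, with 0.74 ± 0.10 (SE, edgeR adjusted p = 0.000169) in wild-type and 0.86 ± 0.11 (SE, edgeR adjusted p = 5.65e-05) in knockout libraries.

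Igf2r, the maternally expressed receptor that clears IGF2, was higher in forebrain. It stood at 193 and 199 CPM in wild-type forebrain, 182 and 207 in knockout forebrain, 142 and 162 in wild-type midbrain and 149 and 148 in knockout midbrain, with 0.37 ± 0.08 (SE, edgeR adjusted p = 0.00269) in wild-type and 0.39 ± 0.08 (SE, edgeR adjusted p = 0.00194) in knockout libraries. Airn, the paternal noncoding RNA that silences Igf2r in cis and overlaps it, was at 1.83 to 2.16 CPM in 7 libraries and at 4.26 CPM in forebrain wild-type replicate 2, and was not called (0.66 ± 0.39 SE, edgeR adjusted p = 0.233). Without that library its wild-type log2 fold change was 0.02.

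Of the pair Nnat and Blcap on chromosome 2, Nnat, a paternally expressed neuronal proteolipid gene inside an intron of Blcap, was higher in forebrain. It measured 1119 and 1095 CPM in wild-type forebrain, 1359 and 1186 in knockout forebrain, 895 and 900.0 in wild-type midbrain and 906 and 937 in knockout midbrain, with 0.30 ± 0.06 (SE, edgeR adjusted p = 0.00277) in wild-type and 0.47 ± 0.06 (SE, edgeR adjusted p = 0.000111) in knockout libraries. Blcap, whose transcripts are maternally biased in brain, had 58.2 to 83.7 CPM in the 8 libraries and was not called in wild-type libraries (-0.17 ± 0.09 SE, edgeR adjusted p = 0.197) or in knockout libraries (-0.21 ± 0.09), where the adjusted p without forebrain knockout replicate 1 was 0.0342. Gnas, the stimulatory G protein locus with several promoters of different imprinting, had 956 to 1168 CPM, and its counts do not separate these transcripts. It was not called (0.15 ± 0.06 SE, edgeR adjusted p = 0.0844); without midbrain wild-type replicate 2 the adjusted p was 0.0137.

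Among genes imprinted outside these clusters, Mest and Nap1l5 differed most clearly. Mest, a paternally expressed hydrolase of mesoderm and brain, had 1271 and 1358 CPM in wild-type forebrain, 1332 and 1498 in knockout forebrain, 715 and 851 in wild-type midbrain and 774 and 763 in knockout midbrain. The lowest forebrain library was 1271 CPM and the highest midbrain library 851 CPM, with 0.75 ± 0.08 (SE, edgeR adjusted p = 1.34e-05) in wild-type and 0.88 ± 0.08 (SE, edgeR adjusted p = 3.14e-06) in knockout libraries.

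Nap1l5, a gene without introns inside Herc3 that is expressed paternally and mainly in brain, showed the largest fall among the 36 genes in wild-type forebrain. It stood at 5.90 and 6.27 CPM in wild-type forebrain, 10.3 and 6.61 in knockout forebrain, 20.6 and 19.2 in wild-type midbrain and 22.5 and 21.5 in knockout midbrain. Forebrain knockout replicate 1 was the highest forebrain library, and still far below the midbrain libraries. The log2 fold change was -1.71 ± 0.19 (SE, edgeR adjusted p = 2.15e-05) in wild-type and -1.38 ± 0.18 (SE, edgeR adjusted p = 9.64e-05) in knockout libraries. Its host Herc3, at 20.7 to 26.0 CPM in the 8 libraries, was not called, with a wild-type log2 fold change of 0.13 ± 0.12 (SE) and an edgeR adjusted p of 0.463.

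Inpp5f, a phosphoinositide phosphatase with a paternal transcript in brain, was lower in forebrain at 90.3 to 106 CPM against 126 to 134 CPM in midbrain (-0.42 ± 0.07 (SE, edgeR adjusted p = 0.000725) in wild-type and -0.41 ± 0.07 (SE, edgeR adjusted p = 0.000789) in knockout libraries). Peg13, a paternally expressed noncoding RNA in an intron of Trappc9, was lower in forebrain, with 93.2 and 83.2 CPM in wild-type forebrain, 97.8 and 80.0 in knockout forebrain, 111 and 113 in wild-type midbrain and 124 and 140.5 in knockout midbrain. Its log2 fold change was -0.34 ± 0.10 (SE, edgeR adjusted p = 0.0174) in wild-type and -0.57 ± 0.10 (SE, edgeR adjusted p = 0.000622) in knockout libraries, and its wild-type adjusted p was 0.154 without forebrain wild-type replicate 2, 0.0632 without replicate 1 of wild-type midbrain and 0.0746 without replicate 2 of it.

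Grb10, an adaptor that restrains growth factor signalling and is maternally expressed in most tissues and paternally in neurons, was slightly higher in forebrain. It measured 1122 and 1153 CPM in wild-type forebrain, 1008 and 1164 in knockout forebrain, 926 and 1003 in wild-type midbrain and 941 and 939 in knockout midbrain. The difference was small, with 0.24 ± 0.07 (SE, edgeR adjusted p = 0.0177) in wild-type and 0.21 ± 0.07 (SE, edgeR adjusted p = 0.0337) in knockout libraries. Leaving out forebrain wild-type replicate 1, forebrain wild-type replicate 2 or midbrain wild-type replicate 1 gave a wild-type adjusted p of 0.0548, 0.0992 or 0.153. In knockout libraries the value was 0.10 with an edgeR adjusted p of 0.254 without forebrain knockout replicate 2, and the adjusted p was 0.192 and 0.141 without midbrain knockout replicate 1 and 2.

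Slc38a4, an amino acid transporter of placenta and liver, had 40.7 and 41.7 CPM in wild-type forebrain, 22.6 and 36.0 in knockout forebrain, 21.5 and 25.4 in wild-type midbrain and 24.6 and 17.7 in knockout midbrain. It was higher in wild-type forebrain, 0.82 ± 0.19 (SE, edgeR adjusted p = 0.00614), an adjusted p that became 0.0682 without midbrain wild-type replicate 1. In knockout libraries it was not called (0.45 ± 0.20 SE, edgeR adjusted p = 0.112), where without forebrain knockout replicate 1 it gave 0.76 with an edgeR adjusted p of 0.00205.

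Plagl1, a zinc finger factor that regulates other imprinted genes, had 316 to 390 CPM and was not called in wild-type libraries (0.16 ± 0.07 SE, edgeR adjusted p = 0.115). Without forebrain knockout replicate 1 or 2 its wild-type adjusted p was 0.0353 or 0.0345, and without replicate 1 its knockout adjusted p was 0.00490. Zrsr1, a splicing factor copy inside Commd1, was at 7.53 to 11.4 CPM (-0.36 ± 0.16 SE, edgeR adjusted p = 0.117) and Impact, a regulator of translation, at 40.1 to 50.0 CPM (-0.10 ± 0.10 SE, edgeR adjusted p = 0.478); neither was called. Rasgrf1, an exchange factor of postnatal neurons, had 0 counts in 5 of the 8 libraries and at most 0.258 CPM.

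Grouped by parental copy, 7 genes expressed from the paternal copy were higher in wild-type forebrain and 9 lower, out of 24 tested with a median log2 fold change of -0.08. Of the genes listed as maternally expressed 4 were higher and 3 lower, out of 12 tested with a median of 0.14. The class is the one listed for each gene and was not measured here. Grb10, Ube3a and Gnas are in the maternal class, although they are not maternal in every cell type or for every promoter. Of all genes tested, 14.3% were higher and 15.3% lower. Both directions occurred in each class. Within domains, Kcnq1ot1 and Cdkn1c, which are expressed from opposite copies, were called in the same direction, while Dlk1 and Meg3, also from opposite copies, were called in opposite directions.

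Other genes reported as imprinted in mouse were taken from a list of 46 that are not among the 41. Of 38 tested, 15 were called in wild-type libraries (39.5%, against 29.6% of all genes), 4 higher and 11 lower in forebrain, with a median log2 fold change of -0.21. The 15 include Snurf, Snhg14 and Copg2, which overlap genes among the 41, so the list is not fully separate from them. Kcnk9, a maternally expressed potassium channel gene of the Peg13 domain, had no count in 3 of 4 forebrain libraries and 7.08 to 8.95 CPM in midbrain. Set against the 3-count floor per library, the lower wild-type midbrain value of Kcnk9 was at least 30.5-fold higher. Ipw, a noncoding RNA of the Snrpn region, was lower in wild-type forebrain with a log2 fold change of -3.33 ± 0.49. That value rests on 8 and 2 counts in wild-type forebrain, and the knockout value was -2.17 ± 0.42. Ddc, which makes dopamine and serotonin, was lower in wild-type forebrain with -2.80 ± 0.20 and the secreted protein gene Smoc1 with -1.72 ± 0.14.

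A further list, named imprint maintenance, held 22 genes that set, keep or remove the methylation and chromatin of imprints, the Tet genes among the last. Of these, 18 were tested and 10 called in wild-type libraries (55.6%, against 29.6% of all genes), 8 higher (14.3% of all genes) and 2 lower (15.3%) in forebrain. The list's median log2 fold change was 0.18. The maintenance methyltransferase Dnmt1 had a log2 fold change of 0.33 ± 0.06, its partner Uhrf1 0.28 ± 0.05, the corepressor Trim28 0.32 ± 0.06 and the deacetylase Hdac1 0.36 ± 0.06. Tet2, which oxidises methylated cytosine, was lower with -0.55 ± 0.08, as was the zinc finger gene Zfp445 with -0.26 ± 0.06. Its relative Zfp57 was not called in wild-type libraries (-0.08 ± 0.08 SE, edgeR adjusted p = 0.495). In knockout libraries Zfp57 was called lower in forebrain (-0.28 ± 0.08 SE, edgeR adjusted p = 0.0160). Without forebrain wild-type replicate 2, 6 of 18 were called, against 3019 of all 15893 genes then tested.

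The hs654 knockout was compared with wild type in midbrain, where the study asked for genes that respond to loss of the enhancer. No imprinted gene was called by edgeR (0 of 36, and 0 of all 15383 genes, or 0%), and none by DESeq2 or limma-voom. At an unadjusted p under 0.05 there were 3 of 36 (8.33%, against 3.96% of all genes). The median absolute log2 fold change of the 36 was 0.07, against 0.10 for all genes, and the groups did not overlap for 13 of 36, against 36.7% of all genes. Markers of other cells differed in the same comparison: all 11 erythroid genes had lower values in the knockout (median log2 fold change -0.53, 6 of 11 at an unadjusted p under 0.05, none called), with a summed level of 8373 and 4415 CPM in the wild-type pools against 4708 and 4124 CPM. Hba-a1 and Hba-a2, both among the 6, have identical rows and are not separate observations. All 7 neuronal genes had higher values without overlap (median 0.12, none called). All 9 mesenchymal genes also had higher values (median 0.17, none at an unadjusted p under 0.05). The part of these cells in the values of the imprinted genes was not tested.

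The 3 genes were Peg13 (log2 fold change, knockout over wild type, 0.24 ± 0.10, edgeR adjusted p = 0.992), Kcnq1ot1 (-0.24 ± 0.11, edgeR adjusted p = 0.992) and Dio3 (1.11 ± 0.50, edgeR adjusted p = 0.992). Their knockout values, given with each gene, both lay on the same side of the wild-type values. Without midbrain wild-type replicate 1, which had the high erythroid sum, the values were 0.23 for Peg13, -0.14 for Kcnq1ot1 and 0.64 for Dio3. Blcap stood at 71.4 and 68.8 CPM in the wild-type midbrain pools and at 75.3 and 83.7 CPM in the knockout pools, 0.18 ± 0.09, edgeR adjusted p = 0.992. None of these differences held up against the spread between pools after adjustment over all genes. The 33 other genes had log2 fold changes between -0.13 and 0.29.

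The hs267-853 knockout was compared with wild type in forebrain in the same way. It shares its wild-type libraries with the wild-type tissue comparison, as the hs654 comparison does. Again no imprinted gene was called by edgeR (0 of 36, against 2 of 15383 genes, 0.0130%), and none by DESeq2 or limma-voom. At an unadjusted p under 0.05 there were 5 of 36 (13.9%, against 4.78% of all genes). The median absolute log2 fold change was 0.10, against 0.09, and the groups did not overlap for 10 of 36, against 31.1% of all genes. All 9 mesenchymal genes had lower values in this knockout (median log2 fold change -0.33, 2 of 9 at an unadjusted p under 0.05, none called). Lower values were also found for 7 of 11 erythroid genes (median -0.06), and higher values for 6 of 7 neuronal genes (median 0.04), with none called. The part of these cells in the values of the imprinted genes was not tested.

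The 5 genes were Nnat (0.20 ± 0.06, edgeR adjusted p = 0.866), Slc38a4 (-0.50 ± 0.19, edgeR adjusted p = 0.984), Nap1l5 (0.48 ± 0.20, edgeR adjusted p = 0.984), Dlk1 (0.31 ± 0.14, edgeR adjusted p = 0.984) and Zrsr1 (0.36 ± 0.16, edgeR adjusted p = 0.984). For Dlk1, Nap1l5 and Slc38a4 replicate 1 of the knockout lay well away from the wild-type values and replicate 2 close to them. Dlk1 shows this best, with 168 and 117 CPM in knockout replicates 1 and 2 against 109 and 122 CPM in wild type. Without forebrain knockout replicate 1 the log2 fold changes were 0.10 for Nnat, -0.19 for Slc38a4, 0.12 for Nap1l5, 0.02 for Dlk1 and 0.29 for Zrsr1. Zrsr1 moved least of the 5 when this library was left out.

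When the knockout was represented by replicate 1 alone, with forebrain knockout replicate 2 left out and the lone library assumed to vary like the other groups, edgeR called 5 imprinted genes, Igf2, H19, Dlk1, Nnat and Slc38a4, and 1.33% of all genes. Igf2 then had -0.65 with an edgeR adjusted p of 0.0238 and Dlk1 0.54 with an edgeR adjusted p of 0.00717. That library had the lowest mesenchymal sum (1253 CPM) and the highest neuronal sum (1986 CPM) among the forebrain libraries, and the part of tissue composition in these values was not tested. Replicate libraries of the hs267-853 knockout differed by a median of 0.19 on the log2 scale over the 32 imprinted genes with a mean of at least 100 counts, against 0.12 over all genes at that depth. In hs654 knockout midbrain the 2 medians were 0.05 and 0.08.

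**Figure D5:**
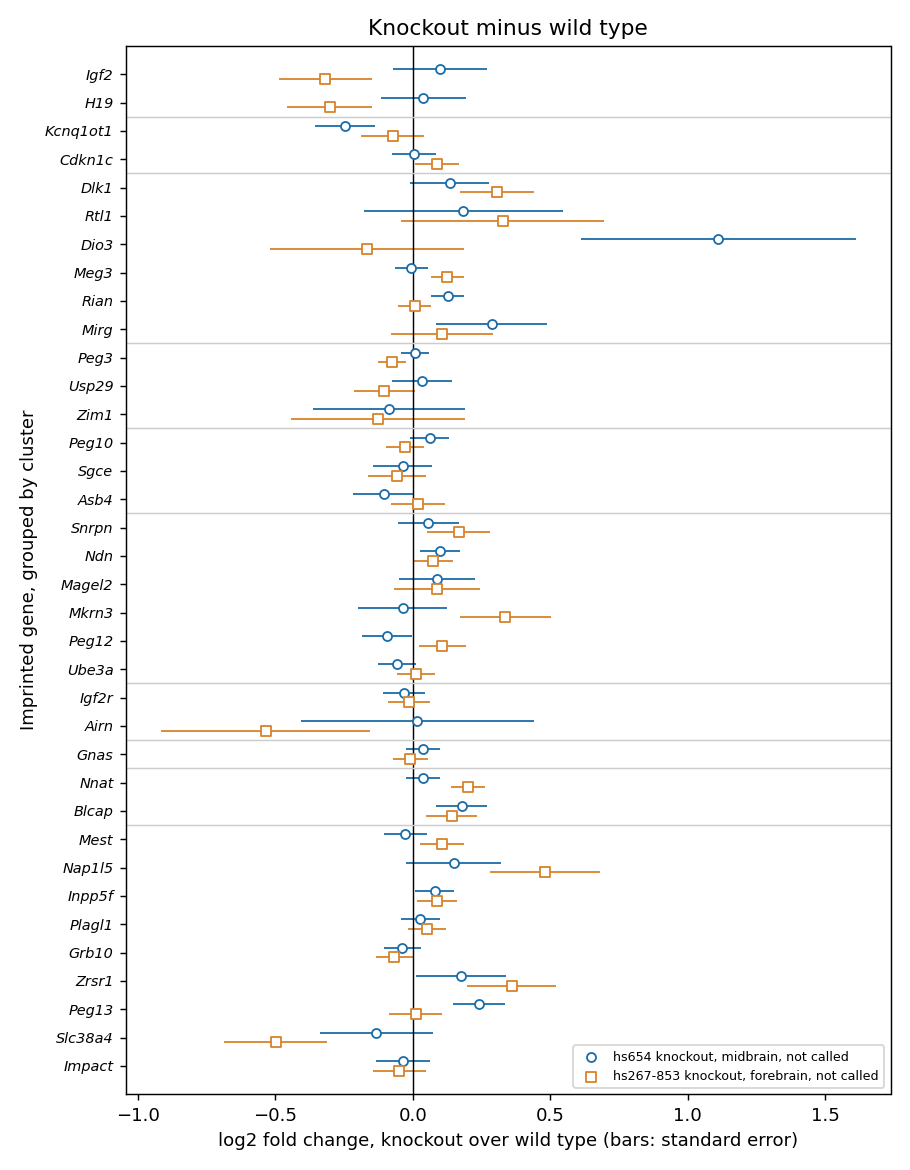
Log2 fold change of knockout over wild type with its standard error (horizontal axis) for each of the 36 imprinted genes, for the hs654 knockout in midbrain (blue circles) and the hs267-853 knockout in forebrain (orange squares). All symbols are open because no gene was called, and Dio3 in midbrain, at 1.11 ± 0.50, lies farthest from 0.

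The knockout effects were also compared with each other, as the midbrain effect minus the forebrain effect, although deletion and tissue differ together. No imprinted gene was called by edgeR, DESeq2 or limma-voom, against 1 of 15383 genes by edgeR (0.00650%), and 0 of 36 had an unadjusted p under 0.05 (4.02% of all genes). The largest difference was that of Dio3, 1.28 ± 0.61 (SE) with an edgeR adjusted p of 0.996.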

How the data were processed

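The 8 RNA-seq libraries (4 groups of 2 pools) were analysed from the authors' deposited tables of raw counts for each gene symbol. The submitters' processing notes name STAR, HTSeq, DESeq2 and the mm10 genome. The annotation, the strand setting and the way overlapping genes were counted are not given in the sources used here, so rows of overlapping or antisense genes are uncertain. The 5 summary rows that name no gene were left out of library sizes. Among reads counted to a gene, to no gene or as ambiguous, those assigned to no gene made up 55.4% to 58.9% per library.

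Genes passing filterByExpr were scaled by TMM and fitted with edgeR 4.0.16 (quasi-likelihood test, R 4.3.3) with 4 group means over all 8 libraries, and p-values were adjusted over 15383 genes. CPM use the TMM-scaled library sizes. SE is the log2 fold change divided by the square root of its F statistic. The alternatives tried were DESeq2 1.42.0, limma-voom (limma 3.58.1), upper-quartile or RLE scaling, a filter at a mean of 50 counts or none, the replicate number as a block, only the 4 libraries compared, and leaving out each library. On simulated counts for wild-type forebrain against wild-type midbrain (15383 genes, 200 changed, 15173 tested), the fit made 163 calls, 17 of them false. It recovered 59.1% of 1.5-fold, 69.2% of 2-fold and 93.9% of 4-fold changes.

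The 41 genes, their clusters and the other lists were chosen with earlier results of these data known. All 41 genes could be named. Of the further imprinted and imprint maintenance lists, up to 6 called genes each could be named by size of log2 fold change. Snurf, Snhg14 and Copg2 were named beyond this rule, as rows that overlap genes among the 41 and not by size. Zfp57 was added as the partner of a named gene, and Herc3 was named as the host of Nap1l5, both after their values were seen. Positions, promoter windows and microRNAs come from RefSeq tables of build GRCm38.p6. Pools of the same genotype are the replicates.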

Additional observations from a re-analysis of the deposited data

How the results depend on the processing

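With 2 pools a group, the precision rests on few samples, and genes with few counts (Dio3, Rtl1, Airn, Zim1) have the widest errors. The count of imprinted genes called ranged from 18 to 27 in the wild-type tissue comparison (23 as reported) and from 17 to 24 in the knockout one (19), and was 0 for the hs654 knockout in all 16 alternatives. Of the 23 and 19 calls, 17 each were kept in every alternative. For the hs267-853 knockout, 0 genes became 4 without a low-count filter (Igf2, H19, Dlk1 and Slc38a4, with 0.796% of all genes called), and 0 to 5 when each library was left out in turn, with 5 without forebrain knockout replicate 2. For the difference between the knockout effects, 0 became 2 without the filter (Igf2 and H19, with 0.549% of all genes called). The further imprinted genes called ranged from 12 to 18 (15), and the imprint maintenance genes from 6 to 10 when each library was left out (10). Values near 0 changed sign. Peg3, -0.00043 in wild-type tissues, was 0.0052 without the filter, 0.0013 by DESeq2 and -0.032 to 0.034 with each library left out, and Sgce was -0.176 to 0.0504. In knockout tissues Igf2 was -0.27 to 0.34, and Rian was -0.0017 with RLE scaling, -0.0235 with a mean of at least 50 counts and -0.0519 to 0.0790 with each library left out. The cause was not tested. Igf2 in wild-type tissues was called in 8 of 16 alternatives: by edgeR without the filter (adjusted p = 1.78e-14), with RLE scaling (0.0495), with the replicate block (0.0282), with only the 4 libraries (0.0134), without either forebrain knockout library or midbrain wild-type replicate 2, and by limma-voom (0.0395). DESeq2 gave 0.258. Replicate numbers did not pair the pools: deviations of same-numbered libraries correlated at -0.013 to 0.103 over the 6 pairs of groups. With the replicate number as a block, 24 imprinted genes were called in wild-type tissues, 21 in knockout tissues, 0 in each knockout comparison and in their difference, 15 further imprinted genes and 10 imprint maintenance genes. The fit to the 4 libraries compared was not run for the difference, which needs all 8.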

Other observations

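Rows of genes that overlap the imprinted genes were counted separately in the deposited tables, and their values stand beside those of the genes they overlap. In wild-type forebrain over midbrain, Copg2, which is transcribed toward Mest from the opposite strand, had a log2 fold change of 0.53 ± 0.07 (SE, edgeR adjusted p = 0.000154). Snhg14, the long host transcript of the Snrpn region, had -0.70 ± 0.09 (SE, edgeR adjusted p = 6.67e-05), and Mir675, inside H19, 0.73 ± 0.17 (SE, edgeR adjusted p = 0.00471). Igf2os, antisense to Igf2, had 0.78 ± 0.21 (SE, edgeR adjusted p = 0.0147). Hymai, in the Plagl1 locus, was not called at -0.20 ± 0.12 (SE, edgeR adjusted p = 0.218), and neither was Peg3os, antisense to Peg3, at 0.04 ± 0.08 (SE, edgeR adjusted p = 0.776).

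Gnasas1, which the RefSeq table gives as the current symbol of Nespas, had 1.63 and 2.01 CPM in wild-type forebrain, 2.61 and 2.95 in knockout forebrain, 2.91 and 1.68 in wild-type midbrain and 1.98 and 1.86 in knockout midbrain. It was not called between the wild-type tissues, -0.36 ± 0.37 (SE, edgeR adjusted p = 0.518). It is not counted among the 40 genes with a row, since members were matched by the listed symbol.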
